A study of Homo sapiens with 4 samples.

Results

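Interleukins, chemokines and their receptors were followed in A673 cells, a human Ewing sarcoma line, after exposure to CBL0137. The members were the protein-coding genes whose symbol is IL, CCL or CXCL followed by a number, or that is CX3CL1, a CCR, a CXCR or an ACKR gene. IL1RAP was left out, while IL1RAPL1 and IL1RAPL2 met the naming rule and were kept. The rule found 145 of the 60617 genes in the table, namely 80 ligands, 60 receptor chains, 4 genes of another function (the antagonists IL1RN and IL36RN, the binding protein IL18BP and the enzyme IL4I1) and 1 read-through gene that joins CCL15 to CCL14. By family, 84 were interleukin genes and 61 chemokine genes. Both groups were A673 cells of no further labelled modification, and 2 libraries came from cells given DMSO, the solvent, and 2 from cells given CBL0137 at 1 µM, in each case for 24 h. CBL0137 is a curaxin, a compound that binds DNA and holds the histone chaperone FACT on chromatin. A673 carries the EWSR1-FLI1 fusion and has no working p53, and it stands for 1 tumour line grown alone, with no immune cells added.

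Interleukins are secreted proteins through which cells, above all those of the immune system, regulate each other. Most bind receptors of several chains that signal through Janus kinases and STAT factors, while those of the IL-1 and IL-17 families use adaptors that lead to NF-kB. Chemokines are small secreted proteins that draw cells along a gradient, and they bind G protein-coupled receptors. The ACKR receptors bind chemokines without classical G protein signalling and remove them from the surroundings. Tumour cells can release such factors whether or not they carry the matching receptor.

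Reads assigned to genes ran from 20483714 to 23373554 per library. Levels below are CPM, which are counts scaled to the library's size, after TMM scaling, a correction for differences in library composition, unless FPKM is named. The values of each condition are given as replicate 1 and replicate 2. Ewing sarcoma markers (CD99, NKX2-2 and 8 others) were all tested, LOXHD1 fell, and their summed level ran from 5624 to 5868 CPM over the 4 libraries. Of 10 blood cell markers 3 passed the count filter. CD68, named after its values were seen, had 2 counts in all but a deposited FPKM of 5.99 to 9.74, so its level is doubtful. The sum of all 10 was 5.51 and 5.06 CPM in DMSO and 8.10 and 7.77 in CBL0137, PTPRC had 2 counts over the 4 libraries, and CD3E, MS4A1 and HBB had 0. Of these, ITGAM, an integrin of myeloid cells, rose (log2 fold change 0.72 ± 0.18, edgeR adjusted p = 0.00192), and its part in the results below was not tested. Endothelial markers summed to 12.3 and 11.0 CPM in DMSO and 12.6 and 16.1 in CBL0137, and epithelial markers to 1.31 and 0.888 in DMSO and 1.38 and 1.25 in CBL0137. One of each, CDH5 (2.36 ± 0.60) and CLDN3 (1.43 ± 0.53), was called higher, with 4 and 3 counts and 10 and 4 counts in DMSO. Both genes passed the count filter only through their CBL0137 libraries, so their direction was set by the filter. In such bulk RNA a change in the number of expressing cells and a change in RNA per cell cannot be told apart. Whether replicates came from separate cultures is not in the labels, and the p-values below then reflect how these libraries varied, possibly for technical reasons alone.

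By their counts, most members were silent or near silent in A673. Over all 4 libraries 52 of the 145 had 0 counts, 29 had 1 to 9, and 10 more had at least 10 but did not pass the filter. A count of 0 allows up to 0.128 to 0.147 CPM, depending on the library (3 counts, counting error only). This bound takes no account of exon bases shared with other genes. CCL27, named after its values were seen, had 0 counts and 100% of its exon bases shared. Its deposited FPKM was 0.205 and 0.180 in DMSO and 0.429 and 0.295 in CBL0137, so its level is doubtful. The remaining 54 were tested, and they comprised 25 ligands, 27 receptor chains, IL18BP and IL4I1. The untested members with 10 or more counts were IL31RA with 39 counts in all, IL21R with 25, IL10RA with 21, IL6 with 16, IL12A with 15, IL1RAPL1 with 14, IL36G with 13, CXCL5 with 12, CCL7 with 11 and IL24 with 10. IL6, the best known inflammatory interleukin, had 3 and 2 counts in DMSO and 4 and 7 in CBL0137.

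By length-scaled level (the FPKM the authors deposited, mean ± SD, n = 2), the leading members in DMSO were IL32 at 31.7 ± 8.35, CCL2 at 29.0 ± 1.04, IL2RG at 15.0 ± 1.55, CXCL8 at 12.4 ± 0.111, IL1A at 11.4 ± 0.924 and IL6ST at 9.19 ± 0.181. IL32 and CCL2 did not differ beyond their spread, nor did CXCL8 and IL1A. IL32 codes for a proinflammatory cytokine, CCL2 for the chemokine that draws monocytes, and CXCL8 for the one that draws neutrophils. The value of IL2RG is doubtful, as described with the overlapping genes below.

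Of the 54 tested members 13 rose in CBL0137, 0 fell and 41 were not called. A call needed a Benjamini-Hochberg adjusted p under 0.05 in edgeR's quasi-likelihood test over all 17309 genes tested and a fold change above 1.5. The 13 higher calls are 24.1% of the tested members, where 6.88% of all tested genes were called higher and 2.73% lower. On the adjusted p alone, 20 members were higher, against 17.5% of all genes, and 1 (IL6R) was lower, against 19.0% of all genes. At an unadjusted p under 0.05 there were 26 of 54, where 44.8% of all genes passed, and the conditions did not overlap for 36 of 54, where 66.9% of all genes did not. Both counts are near the share over all genes. DESeq2 called 1 member lower. The median log2 fold change was 0.29 over the tested members and 0.00324 over all tested genes. By abundance, 5 of the 13 members with a mean of at least 20 CPM were called higher, where 1.70% of all genes at that level were. At 5 to 20 CPM it was 4 of 11 (9.27% of all genes), at 1 to 5 CPM 3 of 18 (15.7%), and under 1 CPM 1 of 12 (8.94%). IL17REL and CXCL2 passed the filter only through their CBL0137 libraries, so their direction was set by the filter. Without such genes 12 of 52 tested members were called higher, and the share over all genes was not computed in that way. Among these 12, CX3CL1 reached the filter level in only 1 DMSO library. The filter asks for 2 libraries, so CX3CL1 too needed its CBL0137 libraries to pass.

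**Figure D1:**
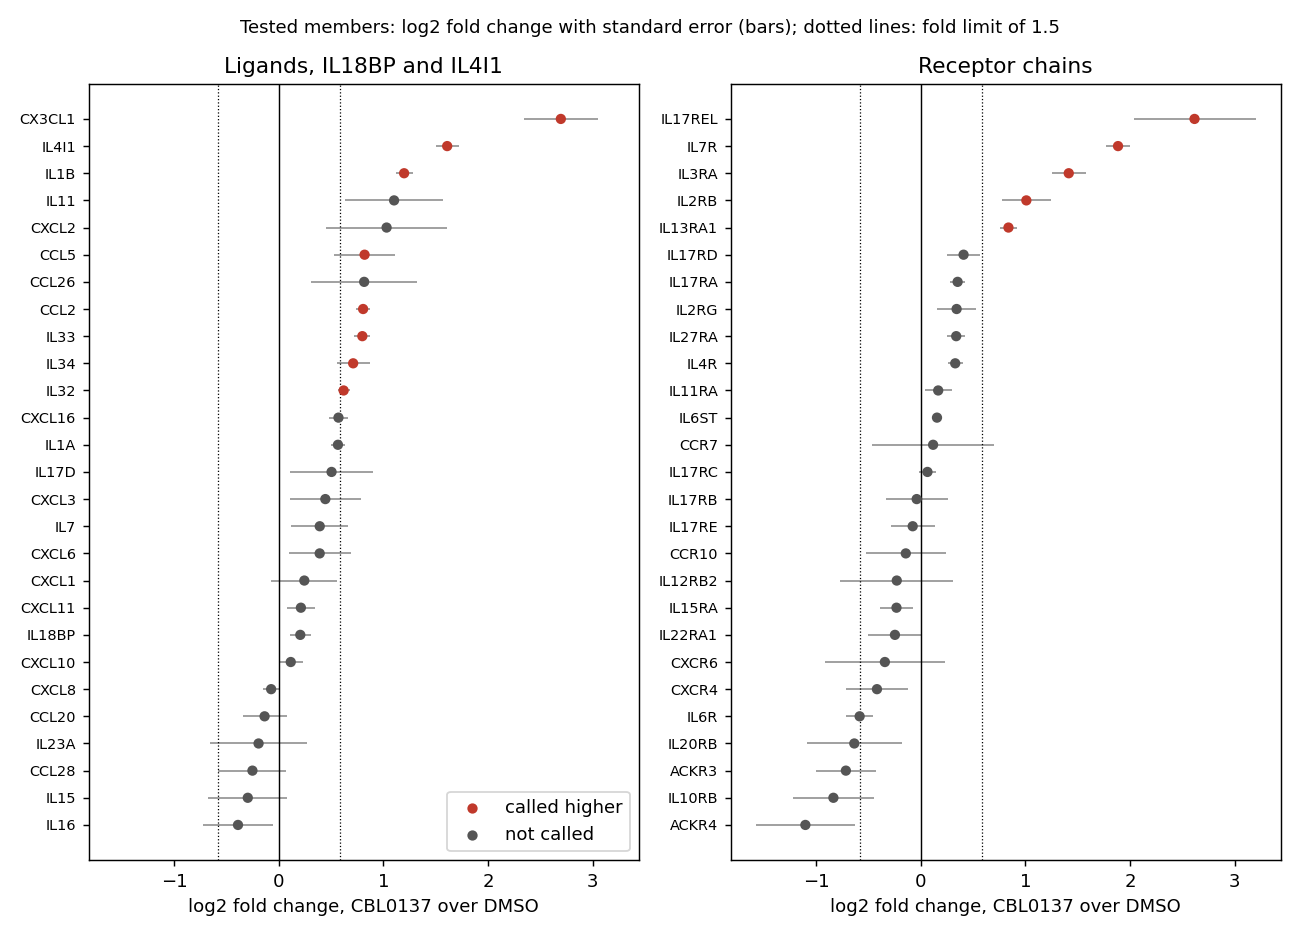
Log2 fold change of CBL0137 over DMSO (horizontal axis) for each of the 54 tested members, ligands with IL18BP and IL4I1 on the left and receptor chains on the right. Points are edgeR estimates from 2 libraries per condition, bars are 1 standard error, red marks the 13 members called higher, and dotted lines mark a fold of 1.5. The values run from -1.10 (ACKR4) to 2.70 (CX3CL1).

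Ligands and receptors were both called in the higher direction only. Of 25 tested ligands 7 rose (28.0%), 18 were not called, and the median log2 fold change was 0.50. Of 27 tested receptor chains 5 were called higher (18.5%, IL17REL among them), 22 were not called, and the median was 0.06. The difference between these shares was not tested. Positive and negative log2 fold changes numbered 19 and 6 among ligands and 14 and 13 among receptor chains. All reads of members together came to 557 and 554 CPM in DMSO and to 791 and 802 in CBL0137 (over all gene counts, without TMM scaling). Ligands took 44.2% and 43.5% of those reads in DMSO and 48.1% and 47.4% in CBL0137, and receptor chains 52.1% and 52.6% in DMSO and 46.9% and 47.8% in CBL0137. Receptor reads are led by IL6ST, and without it receptor chains summed to 192 and 188 CPM in DMSO and 243 and 258 in CBL0137.

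Among the interleukin ligands 4 of 11 tested genes rose, namely IL1B, IL33, IL34 and IL32. IL1B, the inflammasome-processed master cytokine of inflammation (ENSG00000125538, GRCh37 chromosome 2, 113587328 to 113594393), measured 15.4 and 16.9 CPM in DMSO and 37.7 and 36.6 in CBL0137. Both treated libraries lay well above both controls. Its log2 fold change was 1.197 ± 0.08 (SE here and below), with an edgeR adjusted p of 1.33e-11. IL33, an alarmin held in the nucleus until cells are damaged (chromosome 9, 6215786 to 6257983), measured 21.2 and 19.7 CPM in DMSO and 35.1 and 36.0 in CBL0137. The conditions did not overlap, and the log2 fold change was 0.80 ± 0.08 (edgeR adjusted p = 8.56e-09). IL34, a ligand of the macrophage receptor CSF1R (chromosome 16, 70613798 to 70694585), measured 4.42 and 4.66 CPM in DMSO and 7.67 and 7.21 in CBL0137. It too was higher in both treated libraries, by 0.71 ± 0.16 on the log2 scale (edgeR adjusted p = 0.000848). The call was lost in limma-trend on log2(FPKM + 1) of the deposited FPKM, where the difference was 0.50. IL32 (chromosome 16, 3115298 to 3132193) measured 46.2 and 50.3 CPM in DMSO and 74.0 and 74.1 in CBL0137. The conditions were apart, but the log2 fold change of 0.62 ± 0.06 (edgeR adjusted p = 3.8e-09) lay close to the fold limit of 0.585. It was 0.55 without DMSO replicate 1, where the call was lost. The call was also lost in limma-trend on log2(FPKM + 1) (0.78, adjusted p = 0.0776).

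IL1A, the second agonist of the IL-1 receptor and a neighbour of IL1B, lay just under the fold limit. It measured 39.7 and 36.2 CPM in DMSO and 52.9 and 59.2 in CBL0137, with no overlap. Its log2 fold change was 0.56 ± 0.07 (edgeR adjusted p = 2.86e-07), and it was called at 0.63 without DMSO replicate 1, at 0.64 without CBL0137 replicate 1, at 0.61 with upper-quartile factors and at 0.63 with library size alone. Of the region around both genes on chromosome 2 (113531502 to 113891593), which holds 9 members of the IL-1 family, no other member was tested.

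The other 6 tested interleukin ligands were weakly expressed and not called. IL11, a relative of IL6, measured 0.613 and 0.311 CPM in DMSO and 1.14 and 0.863 in CBL0137 (log2 fold change 1.10 ± 0.47, edgeR adjusted p = 0.0679). Both treated values were the higher ones, but they rest on 7 to 24 counts per library, and the gene was called with upper-quartile factors (adjusted p = 0.0494) and with library size alone (0.0462). IL7, the growth factor of lymphocyte precursors, measured 1.79 and 1.95 CPM in DMSO and 1.95 and 2.94 in CBL0137 (0.39 ± 0.27). IL15, which maintains natural killer cells, measured 1.62 and 0.933 CPM in DMSO and 0.857 and 1.21 in CBL0137 (-0.30 ± 0.38), and its conditions overlapped. The log2 fold changes of IL16, an attractant of CD4 cells (-0.39 ± 0.34), of the IL-17 relative IL17D (0.50 ± 0.40) and of IL23A, a subunit of IL23 (-0.19 ± 0.46), came with adjusted p of 0.398, 0.348 and 0.782 in edgeR.

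Among the chemokine ligands 3 of 14 tested genes rose, and they belong to the CC and CX3C classes. CCL2 (ENSG00000108691, chromosome 17, 32582293 to 32584227) measured 34.5 and 33.2 CPM in DMSO and 57.1 and 61.2 in CBL0137. The 2 treated libraries were both higher, and the log2 fold change was 0.81 ± 0.06 (edgeR adjusted p = 2.16e-10). CX3CL1, or fractalkine, a chemokine made as a membrane-bound adhesion protein (ENSG00000006210, chromosome 16, 57406389 to 57418956), measured 0.306 and 0.622 CPM in DMSO and 2.81 and 3.24 in CBL0137. That is 7 and 14 counts against 59 and 75, with no overlap. CX3CL1 reached the filter level in only 1 of its 2 DMSO libraries, so it needed its CBL0137 libraries to pass. Its log2 fold change of 2.70 ± 0.35 (edgeR adjusted p = 1e-06) was the highest among the tested members, and it was 2.27 without DMSO replicate 1 and 3.27 without DMSO replicate 2. CCL5, which draws T cells (chromosome 17, 34198495 to 34207797), measured 1.27 and 1.29 CPM in DMSO and 2.05 and 2.46 in CBL0137. It was higher in both treated libraries, by 0.82 ± 0.29 on the log2 scale (edgeR adjusted p = 0.0288). This call rests on 29 to 57 counts per library. It was lost in DESeq2 (adjusted p = 0.229) and in limma-trend on log2(FPKM + 1) (0.44, adjusted p = 0.0625). Leaving out DMSO replicate 1 (log2 fold change 0.80), DMSO replicate 2 (0.82) or CBL0137 replicate 2 (0.67) also lost it.

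**Figure D2:**
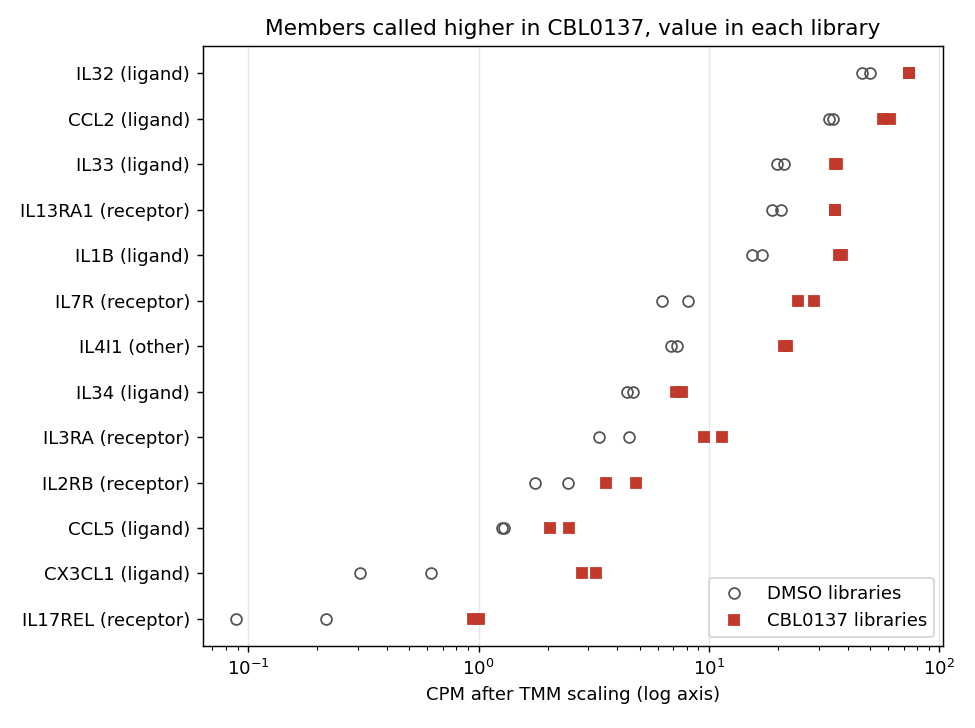
CPM after TMM scaling (log axis) of the 13 members called higher, one row per gene, with the 2 DMSO libraries as open circles and the 2 CBL0137 libraries as filled squares. In each row both treated libraries lie to the right of both controls, from IL17REL (0.0888 to 1.00 CPM) to IL32 (46.2 to 74.1 CPM). The rows were chosen by these calls, so the separation adds no support to them. Over all tested genes 66.9% did not overlap between conditions, in either direction. The direction of IL17REL was set by the count filter.

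Their neighbours in the genome had too few reads to be tested. CCL2 lies in a run of 6 chemokine genes on chromosome 17 (32582293 to 32690252), and CCL5 in a run of 10 members (34198495 to 34524157). CX3CL1 lies between CCL22 and CCL17 on chromosome 16 (57392695 to 57449975). In each of these runs, formed by gaps of at most 200000 bases, the called gene was the only member with enough reads to be tested.

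The CXC chemokines that draw neutrophils were not called. CXCL8 measured 29.9 and 30.1 CPM in DMSO and 30.2 and 26.9 in CBL0137, and the conditions overlapped. Its log2 fold change was -0.07 ± 0.08 (edgeR adjusted p = 0.493), and its sign turned without CBL0137 replicate 2 (0.00589). The run on chromosome 4 (74606236 to 74964913) that holds CXCL8, CXCL6, CXCL1, CXCL5, CXCL3 and CXCL2 had 5 tested members and 0 calls. CXCL6 measured 2.14 and 1.24 CPM in DMSO and 2.52 and 1.94 in CBL0137 (0.39 ± 0.30), and CXCL1 2.01 and 1.29 in DMSO and 2.48 and 1.47 in CBL0137 (0.24 ± 0.31). Both genes overlapped between conditions. CXCL3 measured 1.05 and 1.29 CPM in DMSO and 1.95 and 1.25 in CBL0137 (0.44 ± 0.34), and CXCL2 0.394 and 0.178 in DMSO and 0.714 and 0.475 in CBL0137 (1.03 ± 0.58, edgeR adjusted p = 0.174). CXCL1, CXCL2 and CXCL3 are near-identical copies, so reads may have been split between them or lost, and their values are uncertain.

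The start regions of IL32 and of 4 of these CXC genes hold a like motif. Windows of 250 bases before the start were taken from RefSeq (GRCh38.p14, first listed start of each gene), and 41 of the 54 tested members had one, 8 of the 13 called among them. The kappaB motif of NF-kB, searched on both strands, was present in 15 of the 41 windows, against 9.57% of the 27305 windows of all genes. It was present in 2 of the 8 called (IL32 and IL17REL), and the direction of IL17REL was set by the filter. The AP-1 motif TGANTCA was present in 6 of the 41 and 0 of the 8 called, against 6.60% of all windows. The motif TATAAA was present in 9 of the 41 and 2 of the 8 called, against 11.1% of all windows. A match is a run of letters and not a measured binding site. Printed here are 60 bases that begin 40 bases before the kappaB match, with the match in capitals. The match is 11 letters long because matches on both strands overlap, shifted by 1 base. The stretches are IL32 at chr16:3065264-3065323 (plus strand), CXCL6 at chr4:73836548-73836607 (plus), CXCL1 at chr4:73869274-73869333 (plus), CXCL2 at chr4:74099254-74099313 (minus) and CXCL3 at chr4:74038749-74038808 (minus).
IL32: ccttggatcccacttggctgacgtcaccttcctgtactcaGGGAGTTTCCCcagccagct
CXCL6: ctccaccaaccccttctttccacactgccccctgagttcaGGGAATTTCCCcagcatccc
CXCL1: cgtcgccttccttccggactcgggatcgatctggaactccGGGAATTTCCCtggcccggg
CXCL2: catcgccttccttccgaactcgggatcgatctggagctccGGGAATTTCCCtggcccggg
CXCL3: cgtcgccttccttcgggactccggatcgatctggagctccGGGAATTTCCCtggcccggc
CXCL1 and CXCL2 are identical at 57 of these 60 bases, CXCL1 and CXCL3 at 56, and CXCL2 and CXCL3 at 55. CXCL6 shares 26 of 60 with CXCL1. IL32 was called higher (log2 fold change 0.62 ± 0.06), and the 4 CXC genes with this motif were not called. Their estimates were all positive, from 0.24 ± 0.31 (CXCL1) to 1.03 ± 0.58 (CXCL2, its direction set by the filter). With such standard errors they are not set apart from IL32, and any part of the motif was not tested.

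The remaining chemokine ligands included 1 further gene at the fold limit. CXCL16, which is made both as a membrane-bound scavenger protein and as a shed chemokine, measured 17.0 and 16.7 CPM in DMSO and 26.7 and 23.5 in CBL0137. The conditions did not overlap, and the log2 fold change was 0.57 ± 0.09 (edgeR adjusted p = 1.92e-05), with a call at 0.66 without CBL0137 replicate 2, at 0.62 with upper-quartile factors and at 0.63 with library size alone. The interferon-induced CXCL10 measured 14.1 and 11.2 CPM in DMSO and 14.1 and 13.3 in CBL0137, and its relative CXCL11 7.62 and 9.15 in DMSO and 9.90 and 9.50 in CBL0137. Their log2 fold changes of 0.11 ± 0.12 and 0.21 ± 0.13 had edgeR adjusted p of 0.482 and 0.231, and that of CXCL10 turned its sign without DMSO replicate 2 (-0.05). CCL20, which draws cells that carry CCR6, measured 4.07 and 3.15 CPM in DMSO and 3.48 and 3.11 in CBL0137 (-0.14 ± 0.21). CCL28, a chemokine of mucosal tissues (-0.25 ± 0.32), and CCL26, which draws eosinophils (0.82 ± 0.51), had adjusted p of 0.588 and 0.223 in edgeR.

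Among the interleukin receptor chains 5 of 21 tested genes were called higher, namely IL7R, IL3RA, IL13RA1, IL2RB and IL17REL. The direction of IL17REL was set by the filter. IL7R, the alpha chain of the receptors for IL7 and TSLP (ENSG00000168685, chromosome 5, 35852797 to 35879705), measured 6.26 and 8.08 CPM in DMSO and 24.3 and 28.6 in CBL0137. Both treated libraries were far above both controls, with a log2 change of 1.88 ± 0.12 (edgeR adjusted p = 3.25e-12). IL3RA, the alpha chain of the IL3 receptor (pseudoautosomal region of chromosome X, 1455509 to 1501582), measured 4.51 and 3.33 CPM in DMSO and 9.48 and 11.4 in CBL0137. The conditions were apart, by 1.41 ± 0.16 on the log2 scale (edgeR adjusted p = 1.42e-07). IL13RA1, which binds IL13 and pairs with IL4R (chromosome X, 117861096 to 117928498), measured 18.9 and 20.5 CPM in DMSO and 35.1 and 35.3 in CBL0137. Its replicates lay close together, and the log2 fold change was 0.84 ± 0.08 (edgeR adjusted p = 4.8e-09).

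The other 2 receptor calls were of weakly expressed genes. IL2RB, the beta chain shared by the receptors for IL2 and IL15 (chromosome 22, 37514706 to 37571158), measured 1.75 and 2.44 CPM in DMSO and 3.57 and 4.84 in CBL0137. There was no overlap, and the log2 fold change was 1.01 ± 0.24 (edgeR adjusted p = 0.00141). IL17REL, a gene like the IL-17 receptors whose function is little known (chromosome 22, 50430240 to 50451194), had 5 and 2 counts in DMSO and 21 and 22 in CBL0137. Its log2 change was 2.62 ± 0.58 (edgeR adjusted p = 0.000904), and it ran from 2.12 without DMSO replicate 2 to 3.37 without DMSO replicate 1. IL17REL passed the filter only through its CBL0137 libraries, so its direction was set by the filter. Neither its p-value nor this range is support for a rise.

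IL7R and IL1B, the receptor chain and the interleukin ligand with the highest log2 fold change among those above 1 CPM in DMSO, differ at their start regions in the TATAAA motif. The last 80 bases before the RefSeq start (GRCh38.p14) are shown with matches on either strand in capitals, for IL7R at chr5:35856811-35856890 (plus strand) and for IL1B at chr2:112836780-112836859 (minus strand), which has no match.
IL7R: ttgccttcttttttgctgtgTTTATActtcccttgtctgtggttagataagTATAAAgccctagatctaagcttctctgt
IL1B: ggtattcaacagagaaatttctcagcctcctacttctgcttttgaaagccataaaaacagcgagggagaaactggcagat
In IL7R the plus-strand match spans bases 29 to 24 before the start and the minus-strand match bases 60 to 55. IL3RA, which also rose, has a TATAAA match at the same 29 to 24 bases before its start. The search took only the exact letters TATAAA, and the stretch of IL1B holds the near form CATAAA, which was not counted. Whether the motif has a part in the rise of IL7R or IL1B was not tested.

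Of the interleukin receptor chains, IL6R alone was lower on the adjusted p. IL6R, the ligand-binding chain for IL6, measured 10.5 and 11.5 CPM in DMSO and 7.57 and 7.08 in CBL0137. Both treated libraries were below both controls. Its log2 fold change was -0.5848 ± 0.13 (edgeR adjusted p = 0.000885), just inside the fold limit of 0.585, so it was not called. It was called lower in DESeq2 (-0.59), with RLE factors (-0.586) and with no count filter (-0.597). Leaving out DMSO replicate 1 (-0.65) or CBL0137 replicate 1 (-0.64) gave the same call. Its signalling partner IL6ST, or gp130, the chain shared by the IL6 family, was the member with the most reads, at 105 and 110 CPM in DMSO and 119 and 120 in CBL0137. The values did not overlap, but the log2 fold change was 0.15 ± 0.05 (edgeR adjusted p = 0.00907), and it no longer passed without DMSO replicate 1 (adjusted p = 0.173).

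A further 4 receptor chains passed the adjusted p with small differences. IL4R measured 31.9 and 29.8 CPM in DMSO and 37.9 and 39.7 in CBL0137 (log2 fold change 0.33 ± 0.07). IL17RA, the chain shared by IL-17 receptors, measured 24.9 and 25.3 in DMSO and 31.9 and 32.2 in CBL0137 (0.35 ± 0.07), and IL27RA 19.0 and 19.2 in DMSO and 23.2 and 25.1 in CBL0137 (0.34 ± 0.09). In each of these the treated libraries were the higher ones. IL17RD measured 6.39 and 5.68 CPM in DMSO and 7.0 and 8.98 in CBL0137 (0.41 ± 0.15, edgeR adjusted p = 0.04), and it no longer passed without DMSO replicate 2 (0.32, adjusted p = 0.209) or without CBL0137 replicate 2 (0.21, adjusted p = 0.433).

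The other 10 tested interleukin receptor chains were not called and did not pass the adjusted p. IL17RC, the usual partner of IL17RA, measured 25.8 and 24.4 CPM in DMSO and 26.8 and 25.8 in CBL0137 (0.06 ± 0.08), and IL11RA, the chain that binds IL11, 9.19 and 8.39 in DMSO and 9.62 and 10.1 in CBL0137 (0.17 ± 0.13). IL15RA, which presents IL15, measured 7.66 and 7.15 in DMSO and 5.43 and 7.12 in CBL0137 (-0.23 ± 0.15). IL2RG, the common gamma chain that IL7R and IL2RB pair with, measured 4.29 and 3.91 in DMSO and 5.81 and 4.62 in CBL0137 (0.34 ± 0.18, edgeR adjusted p = 0.154). IL17RE (-0.08 ± 0.21), IL22RA1 (-0.25 ± 0.26), IL20RB (-0.64 ± 0.45) and IL12RB2 (-0.23 ± 0.54) had edgeR adjusted p from 0.293 to 0.812. IL17RB had a log2 change of -0.04 ± 0.30, which turned to 0.00827 with upper-quartile factors and to 0.0217 with library size alone. IL10RB is given with the overlapping genes below.

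None of the 6 tested chemokine receptors was called by edgeR (2 had an unadjusted p under 0.05). With 6.88% of all genes called higher and 2.73% lower, 0 calls in 6 genes is no result about the class. Of the 6, 5 had negative log2 fold changes, with a median of -0.38. ACKR3, a scavenger of CXCL12 and CXCL11, measured 2.71 and 2.04 CPM in DMSO and 1.24 and 1.64 in CBL0137, with the treated libraries below the controls. Its log2 fold change was -0.72 ± 0.29 (edgeR adjusted p = 0.0538), and it was called lower with no count filter (-0.73), with a filter of 1 CPM (-0.70), without DMSO replicate 2 (-0.91) and without CBL0137 replicate 2 (-0.94). ACKR4, a scavenger of CCR7 ligands, had 21 and 19 counts in DMSO and 8 and 10 in CBL0137 (-1.10 ± 0.48, edgeR adjusted p = 0.0726). Both conditions were apart here too. CXCR4, the CXCL12 receptor known for its part in metastasis, measured 2.06 and 1.95 CPM in DMSO and 1.76 and 1.25 in CBL0137 (-0.42 ± 0.29, edgeR adjusted p = 0.285). CCR10, a receptor of CCL28 (-0.14 ± 0.38), CXCR6, the receptor of CXCL16 (-0.34 ± 0.58), and CCR7, which guides cells to lymph nodes (0.12 ± 0.58), overlapped between conditions.

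Of the members that are neither ligand nor receptor, IL4I1 rose. It codes for a secreted oxidase of aromatic amino acids that was first found as an IL4-induced gene (ENSG00000104951, chromosome 19, 50392911 to 50432796). It measured 6.83 and 7.24 CPM in DMSO and 21.1 and 21.8 in CBL0137. The conditions were far apart, with a log2 change of 1.61 ± 0.11 (edgeR adjusted p = 1.23e-11). Of its exon bases 13.5% are shared with ATF5 on the opposite strand and NUP62 on the same strand, and in the deposited FPKM the difference on the log2(FPKM + 1) scale was 0.82. IL18BP, the decoy that binds IL18, measured 14.3 and 14.8 CPM in DMSO and 17.2 and 16.3 in CBL0137 (0.20 ± 0.10, edgeR adjusted p = 0.111).

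Most ligands that rose had few or no reads of their own receptor, and so did several that were not called. Of all 60 receptor members 33 were not tested. In 35 textbook pairs of a ligand with a receptor chain, both genes were tested in 11, the ligand alone in 13, the receptor alone in 10, and neither in 1. In 0 pairs were both called. With 6.88% of all tested genes called higher, that is no result about pairs, which also share genes. The IL33 receptor IL1RL1, the CCL2 receptor CCR2, the CCL5 receptors CCR1 and CCR3 and the fractalkine receptor CX3CR1 had 0 counts in all 4 libraries. IL1R1, the receptor of IL1A and IL1B, had 9 counts in all, and CSF1R, which binds IL34, had 76 and was not called (log2 fold change 0.42 ± 0.42, edgeR adjusted p = 0.466). Among ligands that were not called, the CXCL8 receptors CXCR1 and CXCR2 had 1 and 2 counts. CXCR3, which binds CXCL10 and CXCL11, had 0, and the CCL20 receptor CCR6 had 4. CXCL16, CXCL11, CCL28, IL7, IL15 and IL11, also not called, each had a receptor chain that was tested.

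Of the receptor chains that rose, some lacked reads of their ligand. IL3 had 0 counts and IL13 had 1, while IL3RA and IL13RA1 had 641 and 2447 counts over the 4 libraries. The second chain of the IL3 receptor, CSF2RB, had 6 counts, all of them in DMSO replicate 1. IL7R had its ligand in the same cells, with an FPKM of IL7 of 0.912 in DMSO and 0.788 in CBL0137 against 1.06 and 4.05 for IL7R. IL7 was not called, its counts gave a difference of the opposite sign (0.39 ± 0.27), and 16.3% of its exon bases are shared with other genes. IL2RB had IL15 at an FPKM of 0.244 and 0.204. Likewise IL17A and IL27 had 0 counts, while IL17RA and IL27RA were above 18 CPM in every library. CXCL12 had 5 counts in all, beside its receptors CXCR4 and ACKR3.

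**Figure D3:**
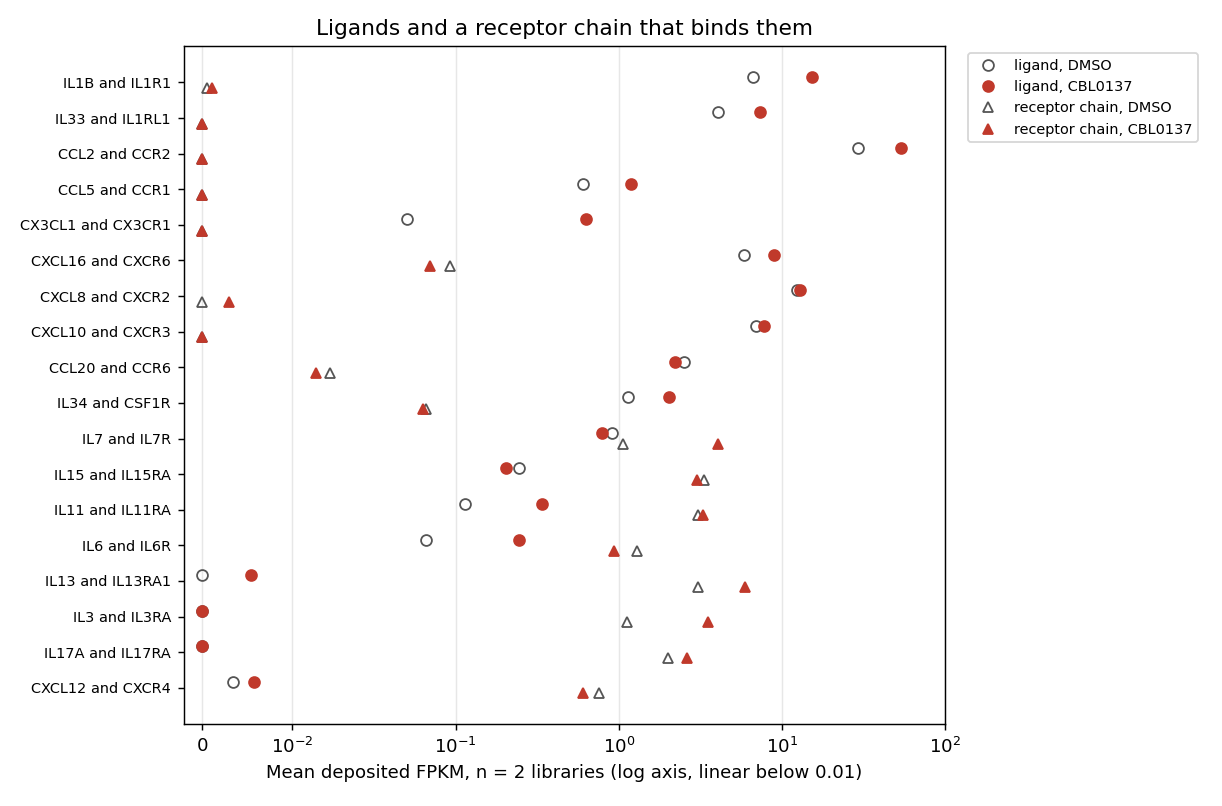
Mean deposited FPKM (log axis, linear below 0.01, n = 2 libraries per condition) of 18 ligands (circles) and a receptor chain that binds each (triangles), open for DMSO and filled red for CBL0137. From IL1B to IL34 the ligand is above its receptor, and from IL7 to CXCL12 the receptor is above its ligand, with 0 drawn at the left edge.

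Some members share exon bases with other genes, and for 2 of them, IL2RG and IL10RB, the deposited counts and FPKM part widely. IL2RG had 98, 88, 122 and 107 counts (DMSO, then CBL0137), which by its length in the annotation comes to 1.47 RPKM in DMSO, while its deposited FPKM was 16.1 and 13.9 in DMSO and 20.8 and 22.1 in CBL0137. Of its exon bases 51.3% are shared with a gene on the same strand. IL10RB, a chain shared by receptors of the IL10 and lambda interferon families, had 30 and 27 counts in DMSO and 14 and 17 in CBL0137, with a log2 change of -0.84 ± 0.39 (edgeR adjusted p = 0.0951). Its deposited FPKM was 9.11 and 7.09 in DMSO and 7.74 and 9.50 in CBL0137, so the conditions overlapped there and the difference in log2(FPKM + 1) was 0.08. By length its counts come to 0.153 RPKM in DMSO, and 21.6% of its exon bases are shared with the read-through gene IFNAR2-IL10RB. For these genes neither value can be taken as the level. Shared bases also reach 46.5% in IL17RC, 38.1% in IL17D, 35.5% in IL16, 34.4% in CCR10 and 32.8% in IL11RA. The counts of IL17RC come to 5.42 RPKM in DMSO, beside a mean FPKM of 5.98. Those of CCL2, with 0% shared, come to 17.1 RPKM beside 29.0. Whether sharing is why the measures part was not tested. CSF2RB and the other genes named only as partners were not examined for this.

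**Figure D4:**
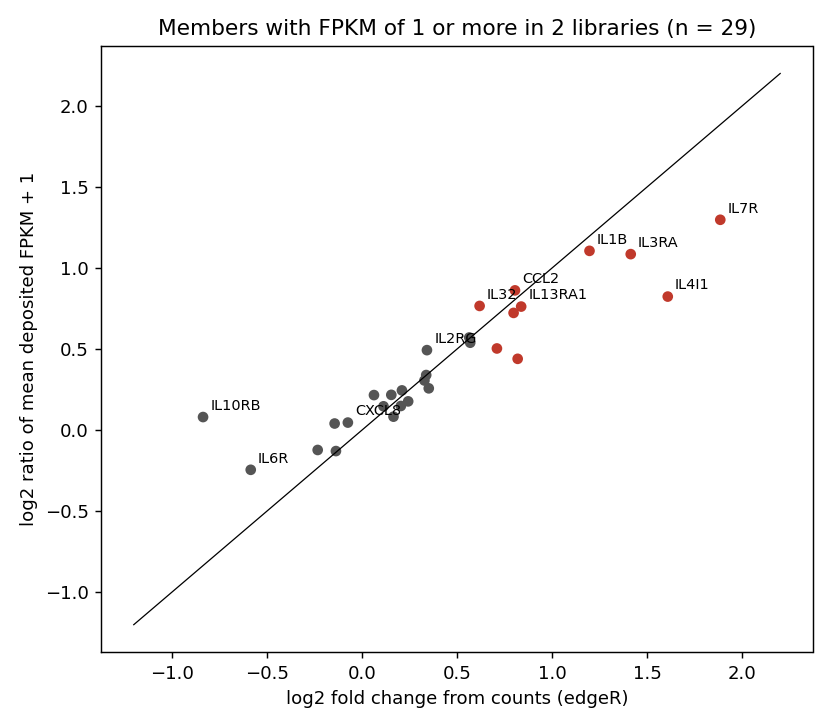
For 29 tested members whose FPKM reached 1 in 2 libraries, the log2 fold change from counts (horizontal axis) against the log2 ratio of mean deposited FPKM + 1 (vertical axis). Red marks members called higher and the line marks equal values. IL10RB lies off the line (-0.84 from counts, 0.08 from FPKM), as does IL4I1 (1.61 and 0.82). Others off it include IL7R (1.88 and 1.30), CCL5 (0.82 and 0.44), IL6R (-0.58 and -0.24) and IL3RA (1.41 and 1.09). The 1 added to FPKM draws the ratios of weakly expressed genes towards 0.

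With the fold limit, the genes that carry signals from these receptors were called about as often as all genes. Of 35 such genes (Janus kinases, STAT factors, SOCS inhibitors, IL-1 receptor adaptors, G proteins and arrestins) 34 were tested, 3 rose (6.88% of all tested genes did), 0 fell (2.73%) and 31 were not called, with a median log2 fold change of 0.03. The count that rose was 2 to 5 with 1 library left out. On the adjusted p alone 12 of the 34 were higher and 9 of the 34 lower. Both are larger shares than the 17.5% and 19.0% of all genes, and the differences were not tested. JAK3, the kinase bound to the common gamma chain, measured 7.05 and 8.75 CPM in DMSO and 13.2 and 14.3 in CBL0137 (0.80 ± 0.13, edgeR adjusted p = 1.61e-05). Its call was lost in limma-trend on log2(FPKM + 1) (0.57, adjusted p = 0.0665). ARRB1, an arrestin that uncouples G protein-coupled receptors, measured 94.0 and 91.4 CPM in DMSO and 155 and 162 in CBL0137 (0.77 ± 0.04). Both were higher in each treated library. PTPN6, a phosphatase that damps cytokine receptors, differed by 0.60 ± 0.19 on the log2 scale (edgeR adjusted p = 0.0178). The call of PTPN6 was lost in DESeq2 (adjusted p = 0.186) and in limma-trend on log2(FPKM + 1) (0.27, adjusted p = 0.189). Leaving out DMSO replicate 1 (log2 fold change 0.61) or 2 (0.57) or CBL0137 replicate 2 (0.58) also lost it. GNAI2 (-0.37 ± 0.04) and GRK2 (-0.34 ± 0.04) passed the adjusted p but not the fold limit.

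Related cytokines and receptors that the naming rule does not reach included 4 that rose. Of 27 such genes 12 had too few counts to be tested, 4 rose (6.88% of all tested genes did), 0 fell (2.73%) and 11 were not called, with a median log2 fold change of 0.43. EBI3, a subunit of IL27 and IL35, measured 20.5 and 25.2 CPM in DMSO and 41.5 and 44.6 in CBL0137 (0.92 ± 0.08, edgeR adjusted p = 2.45e-09). CSF1, the macrophage growth factor that shares its receptor with IL34, measured 22.5 and 23.2 CPM in DMSO and 36.5 and 40.0 in CBL0137 (0.74 ± 0.08). The conditions did not overlap for either. LIF (0.86 ± 0.32, edgeR adjusted p = 0.0358) and CLCF1 (0.76 ± 0.22, edgeR adjusted p = 0.0092), both of the IL6 family, had 24 to 84 counts per library. The count that rose was 2 to 4 with 1 library left out. LIF lost its call in DESeq2 (adjusted p = 0.244), without DMSO replicate 1 (0.122) or 2 (0.119) and without CBL0137 replicate 1 (0.206). CLCF1 lost its call in DESeq2 (adjusted p = 0.126), in limma-trend on log2(FPKM + 1) (0.36, adjusted p = 0.109) and without CBL0137 replicate 1 (log2 fold change 0.66). OSMR, the oncostatin M receptor chain that pairs with IL6ST, passed the adjusted p at 0.43 ± 0.04 but not the fold limit. MIF, a cytokine of macrophages that was singled out after its values were seen, was not tested, with 15 counts in all, while its deposited FPKM was 459 and 434 in DMSO and 351 and 375 in CBL0137. Counts and FPKM part there as they do for IL2RG and IL10RB, so its level is doubtful too.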

How the data were processed

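RNA-seq was done on 4 libraries of A673 cells, 2 per condition, with groups taken from the sample titles. The deposited counts per gene were made by the authors with Trim Galore, HISAT2 on hg19 and HTSeq 0.11.1, per the submitters' processing notes, which also name DESeq2 1.26.0 and list mm10 beside hg19 with no role stated. The deposited FPKM were computed by the authors from mapped reads, gene length and depth, per the labels. The annotation release, the FPKM tool, strandedness and the RNA selection are not given in the sources used here. Reads of genes that overlap on either strand may therefore have been mixed or left out of the counts. Of the table's 60623 rows, 6 name no gene, and HTSeq's summary rows, 23.7% to 24.8% of all reads, stayed out of library sizes and tests.

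Ensembl IDs were matched to symbols in GENCODE 44 lifted to GRCh37 (hg19), which named 58524 of 60617. The annotation entries CCL3L1, CCL4L1, CCL4L2 and the Y copies of IL3RA and IL9R have no row. edgeR 4.0.16 in R 4.3.3 was fitted to all genes with TMM factors and filterByExpr (minimum count 10, a level of 0.436 CPM). A standard error is the log2 fold change over the square root of the F statistic. Calls used an adjusted p of 0.05 and a fold of 1.5, the limits of the series' description. The script was tested on simulated data. Alternatives were other size factors and filters, DESeq2 1.42.0, limma 3.58.1 (voom, and trend on log2(FPKM + 1)), other fold limits, glmTreat at a fold of 1.2, a replicate block, and each library left out. Every tested member is named, as are members under the filter with 10 or more counts, and of other lists the called genes and the 4 with the smallest adjusted p. A few genes that meet these rules are not reported here. Genes named as ligand or receptor of a member follow the list of pairs. The members, lists and pairs were chosen with earlier results of these data known. Motifs were searched in RefSeq windows of GRCh38.p14, and 15 of the 41 members with a window have several starts. Figures were made with matplotlib 3.10.9.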

Additional observations from a re-analysis of the deposited data

How the results depend on the processing

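Over all genes 1663 were called. DESeq2 called 923, limma-trend on FPKM 577, a fold limit of 2 left 736, and no fold limit gave 6314. Of members, 13 were higher. A fold limit of 2 left 7, limma-trend on FPKM 7 (members under an FPKM of 1 were not tested there), and no fold limit gave 20, while leaving out 1 library gave 12 to 14. Against 0 members called lower, RLE factors, a filter of 1 CPM, DESeq2, no fold limit and glmTreat each gave 1, no count filter gave 2, and leaving out 1 library gave 1 each time (1 to 1). CCL2, IL33, IL1B, IL4I1, IL13RA1, IL7R and IL3RA kept their calls in all 13 alternatives that leave the fold limit at 1.5 (other limits and glmTreat were run for counts only), and CX3CL1 and IL2RB in all 12 of these that gave a value. DESeq2 gave IL17REL no adjusted p. Signs turned only for members that were not called. On FPKM they did so for CXCL8 (0.0461), CCR10 (0.0421) and IL10RB (0.0837), and for IL17RB with upper-quartile factors (0.00827) and library size alone (0.0217). With 1 library left out, log2 fold changes ran from -0.16 to 0.00589 for CXCL8, -0.0479 to 0.28 for CXCL10, -0.32 to 0.0541 for CCL20, -0.17 to 0.60 for CXCL1, -0.60 to 0.00588 for CCL28, -0.65 to 0.15 for IL15, -0.65 to 0.13 for IL23A, -0.24 to 0.0900 for IL17RE, -0.18 to 0.10 for IL17RB, -0.49 to 0.28 for CCR10, -1.38 to 0.0117 for IL20RB, -0.55 to 0.10 for IL12RB2, -0.83 to 0.0391 for CXCR6 and -0.25 to 0.59 for CCR7. Others that were not called kept their sign but moved far, namely IL7 (0.06 to 0.64), CXCL6 (0.0448 to 0.83), CXCL3 (0.0959 to 0.74), IL17D (0.11 to 0.79), IL11 (0.69 to 1.66) and CXCL2 (0.57 to 1.70). The cause was not tested. With a library left out, the lone one is taken to be as variable as the other pair.

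Deviations from the condition means were not correlated between libraries of the same replicate number (-0.000133 over all tested genes). With 2 libraries per condition this single value cannot decide whether libraries were paired by design. With the replicate number as a block, 1576 genes were called, 13 members higher and 0 lower. Other scalings moved the median log2 fold change of all genes by at most 0.0615. With 2 libraries per condition and under 100 counts, log2 fold changes of members carry standard errors up to 0.58.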
